A study of Mus musculus with 10 samples.

Results

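The heterogeneous nuclear ribonucleoproteins (hnRNPs) and the serine and arginine rich (SR) splicing proteins were described in E14 mouse embryonic stem cells. The members were all protein-coding genes in the RNA-seq tables whose annotated symbol starts with Hnrnp, or with Srsf and a digit. This rule found 20 hnRNP genes and 11 SR genes, 31 of the 21974 protein-coding genes and of the 55487 genes in all. Another 2 genes with such symbols, Hnrnpa1l2-ps and Hnrnpa1l2-ps2, are processed pseudogenes with 0 counts and were not members.

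The series maps R-loops, in which RNA pairs with 1 strand of DNA, by MapR and BisMapR. Those samples were not analysed here. The RNA-seq group has 3 replicates of E14, an established mouse line, with no deletion or transgene named in the labels and no treated group. The growth medium held serum, the cytokine LIF, 3 µM GSK inhibitor and 1 µM MEK1/2 inhibitor, and the RNA was total RNA depleted of ribosomal RNA. The labels do not say whether the replicates were separate cultures, so the spread between them may be technical. With 1 group, no difference between conditions could be tested, and the comparisons below are between genes within libraries.

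An hnRNP coats nascent transcripts in the nucleus and often acts at a splicing silencer, while an SR protein binds exonic enhancers through RNA recognition motifs and recruits the splicing machinery through its arginine and serine rich domain. The families often oppose each other on the same exon. SR protein activity and location are set by phosphorylation through the SRPK and CLK kinases. Many genes of both families limit their own level by splicing in an exon or intron that brings a premature stop codon, which sends the mRNA to nonsense-mediated decay. Most of the abundant members are made in nearly every cell type, while a few, such as Hnrnpll, are known for a role in particular cells.

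Depth differed between the libraries, with totals of 11420425 estimated counts in replicate 1, 6467405 in replicate 2 and 5787357 in replicate 3, of which the members held 87825, 50018 and 41859. Levels are given as TPM, a transcript abundance that corrects the count for length and sums to a fixed total per library. Genes with an effective length under 100 nt held 60.3 to 65.8% of all TPM and protein-coding genes 17.3 to 22.9%, highest in replicate 1, so TPM of every member is compressed by those short RNAs. TPM was highest in replicate 1 for 29 of the 31 members and lowest in replicate 3 for 25. The same shares over all genes were not computed. The order was not particular to the members: over protein-coding genes with a mean TPM of at least 1, the median was 7.11, 5.58 and 4.39 TPM in replicates 1, 2 and 3. Replicate 3 stood apart from the others: the biological coefficient of variation over all genes was 0.162 with it and 0.0906 without it. All 6 pluripotency markers had a mean TPM of at least 1, with a summed TPM from 434 to 581, and Nanog, Pou5f1, Zfp42, Esrrb, Sox2 and Klf4 each reached over 10 TPM. Of the fibroblast markers, 1 of 6 reached 1 TPM (Thy1), the summed TPM was 1.24 to 3.37, and Dcn, Postn and Col3a1 had 0 counts. Of the neuronal markers, 2 of 5 reached 1 TPM (Tubb3 and Syn1), with a summed TPM of 11.43 to 16.88. None of the 4 endoderm markers did, and their sum was 0.30 to 0.74 TPM. In bulk RNA, fewer cells of a type and less RNA per cell cannot be told apart.

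Several members have processed copies elsewhere in the genome that match their mRNA almost letter for letter. These stretches are shown because a read from an identical stretch cannot be placed by its sequence, and a read from the others only where it covers a differing base, so the counts rest on how the authors' estimator divided such reads. Each sequence is from the GENCODE vM21 transcripts, 5′ to 3′ on the gene's own strand, with capitals where member and copy differ. Each window was picked for the most differences within the aligned coding stretch. Those stretches, from alignments without gaps, differ at 3 of 690 bases for Hnrnpk and at 2 of 492 for Srsf3. The Hnrnpk stretch is from a short transcript of 839 nt. The longest alignment of Hnrnpk with its copy Gm7964 held 10 mismatches and 1 gap over 1378 nt. The first pair covers coding bases 1 to 90 of a transcript of Hnrnpa3 (chromosome 2, 75659261 to 75669407, plus strand, GRCm38), with the matching bases of the transcribed processed pseudogene Gm5641 (chromosome 3, 54481438 to 54482925, plus strand), and holds 0 differences.
Hnrnpa3: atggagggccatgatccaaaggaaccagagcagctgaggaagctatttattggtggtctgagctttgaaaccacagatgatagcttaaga
Gm5641: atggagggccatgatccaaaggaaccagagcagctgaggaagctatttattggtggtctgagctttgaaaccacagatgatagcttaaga

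The second pair covers coding bases 509 to 598 of a transcript of Hnrnpk (chromosome 13, 58391142 to 58403343, minus strand), with the processed pseudogene Gm7964 (chromosome 7, 83755904 to 83757281, plus strand), and differs at 2 bases.
Hnrnpk: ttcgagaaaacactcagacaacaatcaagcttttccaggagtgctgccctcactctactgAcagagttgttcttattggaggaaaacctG
Gm7964: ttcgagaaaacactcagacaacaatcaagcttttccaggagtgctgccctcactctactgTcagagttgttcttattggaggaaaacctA

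The third pair covers coding bases 159 to 248 of Srsf3 (chromosome 17, 29032628 to 29043373, plus strand), with the processed pseudogene Gm9761 (chromosome 3, 116560935 to 116561426, minus strand), and differs at 1 base.
Srsf3: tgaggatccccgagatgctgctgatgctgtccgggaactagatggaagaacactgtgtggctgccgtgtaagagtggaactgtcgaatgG
Gm9761: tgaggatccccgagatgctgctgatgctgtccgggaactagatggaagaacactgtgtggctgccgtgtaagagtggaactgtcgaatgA

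The first comparison asked how strongly each family was expressed. Of the 31 members, 30 had a mean TPM of 1 or more, against 44.1% of all protein-coding genes, and Srsf12 was the exception. With TPM rescaled without genes of effective length under 100 nt, Srsf12 had 1.11, 0.88 and 1.17 TPM, a mean of 1.05. Its place under the limit thus depends on the short RNAs, and the 44.1% was not recomputed on that scale. Among the protein-coding genes of at least 1 TPM, the 90th percentile lay at 29.22 TPM, passed by 10% of those genes by construction and by 16 members (12 hnRNP and 4 SR). The median of the members' mean TPM was 31.87, against 5.73 over the expressed protein-coding genes. The members are 0.14% of the protein-coding genes and held 0.94% ± 0.01 (SD, n = 3) of their counts.

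The hnRNP genes were the higher family by TPM. Their median log2(TPM + 1) was 5.43 ± 0.26 and that of the SR genes 4.76 ± 0.31 (SD, n = 3), a difference of 0.67 ± 0.04 that had the same sign in each replicate. The summed TPM was 1379 ± 253 for the 20 hnRNP genes and 333.3 ± 55.9 for the 11 SR genes (SD, n = 3). By mean TPM the top 7 were hnRNPs, and Srsf3 came at position 8. The size of the family difference depended on how length entered. It was 0.33 ± 0.19 with counts scaled to the library total (CPM, no length scaling) and 0.16 ± 0.10 with counts divided by a reference transcript length, both under the value by TPM by more than 1.5 times.

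**Figure D1:**
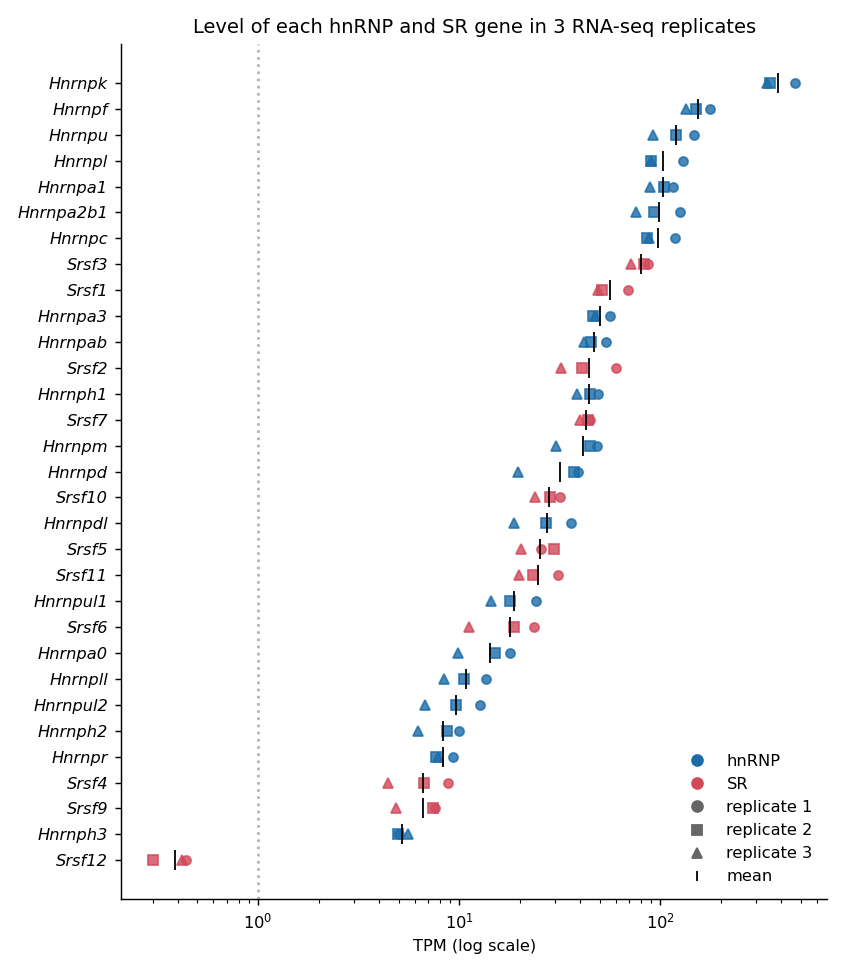
TPM (log scale) of each of the 31 genes in the 3 replicates, with hnRNP and SR genes in different colours; points are replicates and the genes are ordered by mean TPM. Hnrnpk stands above all others, from 341 to 469 TPM, and Srsf12 below all others, at 0.44 TPM or less.

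Among the hnRNPs, Hnrnpk, a KH domain protein that binds C-rich RNA and DNA, was highest at 469.0, 350.3 and 341.0 TPM in replicates 1, 2 and 3. The lowest of these exceeded every value of every other member. Hnrnpf, which binds G-tracts, had 176.8, 150.3 and 134.4 TPM. Hnrnpu, also called scaffold attachment factor A, which binds both chromatin and RNA, had 147.7, 120.3 and 92.1 TPM, overlapping the range of Hnrnpf. Hnrnpl, which binds CA repeats, had 130.3, 90.01 and 90.27 TPM. Hnrnpa1, a splicing repressor that antagonises SRSF1, had 116.3, 104.2 and 88.9 TPM, overlapping the range of Hnrnpl. Hnrnpa2b1, its close relative, had 125.6, 93.0 and 75.7 TPM, and Hnrnpc, which binds U-tracts, had 118.4, 86.2 and 87.8 TPM. The ranges of Hnrnpu, Hnrnpl, Hnrnpa1, Hnrnpa2b1 and Hnrnpc therefore overlapped one another. Compared by TPM within each replicate, however, Hnrnpf exceeded Hnrnpu, and Hnrnpu exceeded Hnrnpl, Hnrnpa1, Hnrnpa2b1 and Hnrnpc in all 3.

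A second tier of hnRNPs lay between 27.3 and 50.1 TPM. It held Hnrnpa3 at 50.1 ± 5.44, Hnrnpab at 46.7 ± 6.13, Hnrnph1 at 44.1 ± 5.38, Hnrnpm at 41.1 ± 9.61, Hnrnpd at 31.9 ± 10.6 and Hnrnpdl at 27.3 ± 8.65 TPM (SD, n = 3). Hnrnpd, known as AUF1 for its binding to AU-rich elements, had 38.9, 37.0 and 19.7 TPM, so replicate 3 lay apart from the others. The lowest tier held Hnrnpul1 (18.8 ± 4.88), Hnrnpa0 (14.3 ± 4.06), Hnrnpll (10.8 ± 2.58), Hnrnpul2 (9.68 ± 2.96), the X-linked Hnrnph2 (8.29 ± 1.88), Hnrnpr (8.29 ± 0.89) and Hnrnph3 (5.18 ± 0.31). Every one of the 20 hnRNP genes thus exceeded 1 TPM in each replicate.

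Among the SR genes, Srsf3, the smallest protein of its family and an adaptor of mRNA export, was highest at 87.1, 82.5 and 71.6 TPM. Srsf1, the founding member, had 69.2, 51.3 and 49.0 TPM, all below the lowest value of Srsf3. Srsf2, also called SC35 and known from nuclear speckles, had 60.0, 41.0 and 32.2 TPM. Srsf7, which shares the export adaptor role, had 44.6, 43.5 and 39.9 TPM, inside the range of Srsf2. Srsf10, Srsf5 and Srsf11 lay close together, at 27.9 ± 3.88, 25.1 ± 4.60 and 24.7 ± 5.73 TPM (SD, n = 3), followed by Srsf6 at 17.9 ± 6.21. Srsf4 and Srsf9 had 6.65 ± 2.19 and 6.61 ± 1.55 TPM (SD, n = 3).

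Srsf12 (chromosome 4, 33208991 to 33233340), a relative of Srsf10, had 0.44, 0.30 and 0.42 TPM from 24, 12 and 13 estimated counts. These are above 3 counts, the limit that a count of 0 allows, which corresponds to 0.263, 0.464 and 0.518 CPM in the 3 libraries. In the order by mean TPM, 3 of the 30 neighbouring pairs had ranges that did not overlap: Hnrnpk over Hnrnpf, Srsf3 over Srsf1 and Hnrnph3 over Srsf12. The other 27 neighbours overlapped, although 15 of the 30 pairs had the same order in all replicates.

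The next question was what the length scaling did to these levels. The tables give each gene a length averaged over its transcripts, weighted by their estimated abundance. It was set against the longest transcript that the annotation marks as principal by APPRIS, a ranking of coding isoforms, here called the reference length. For Hnrnpk the averaged length was 821, 878 and 835 nt in replicates 1, 2 and 3, against a reference of 2676 nt, or 31.6% of it. The annotation gives Hnrnpk 34 transcripts: 7 coding ones of 2585 nt or more and 27 of 1380 nt or less, 15 of which are incomplete models. With such averages, the 7 longer transcripts can hold at most 20, 22.6 and 20.7% of the gene's estimated abundance.

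Counted per kilobase of reference transcript, Hnrnpk no longer led. It had 286.2 ± 6.32 and Hnrnpf 286.3 ± 12.3 CPM per kilobase (SD, n = 3), and the 2.51-fold lead of Hnrnpk over Hnrnpf by TPM was 1.00-fold here, with the order differing between replicates. Next came Hnrnpa1 (266.6 ± 14.4), Hnrnpa3 (235.1 ± 12.3) and Hnrnpa2b1 (226.9 ± 11.8), whereas Hnrnpu, at position 3 by TPM, was at position 11 with 100.9 ± 1.08 CPM per kilobase (SD, n = 3). Of the 30 neighbouring pairs on this scale, 11 had ranges that did not overlap.

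Averaged lengths under 50% of the reference were found in 5 hnRNP genes and in 0 SR genes, 16.1% of the members, beside 12.0% of expressed protein-coding genes. The other 4 were Hnrnpu (32.0%), Hnrnpm (32.1%), Hnrnpr (16.8%) and Hnrnpd (14.8%, with an average of 1007 ± 55.3 nt and a reference of 6811 nt). For Hnrnpr the average was 3597 ± 431 nt (SD, n = 3) and the reference 21452 nt. Its other coding transcripts have at most 2683 nt, less than that average, so its low percentage rests on 1 long reference model. The median was 69.4% of the reference for hnRNP genes, 74.1% for SR genes and 83.1% over expressed protein-coding genes. Hnrnpa3 went the other way, with an averaged length of 2899 ± 366 nt, 175.3% of its reference. In the annotation, 9 of 11 SR genes (81.8%) and 10 of 20 hnRNP genes (50%) list a transcript of the nonsense-mediated decay type, against 31.0% of expressed protein-coding genes. A retained-intron transcript is listed for 22 of the 31 (71.0%), against 63.0%. The median number of annotated transcripts was 8 for hnRNP genes and 7 for SR genes, against 5 for expressed protein-coding genes. A gene with more transcripts can more easily list either type, and the shares were not compared at equal transcript number. The abundance of single transcripts was not analysed here, so these counts describe the annotation, not use in these cells.

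**Figure D2:**
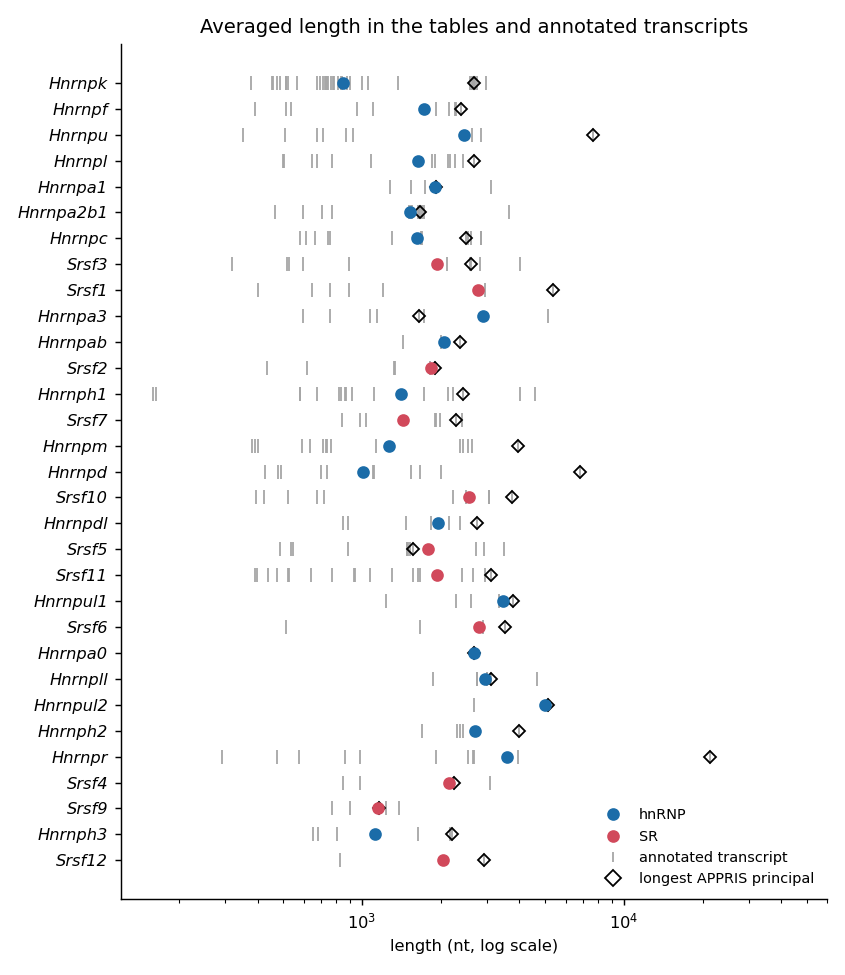
Averaged length (coloured points, mean of 3 replicates), annotated transcripts (grey ticks) and longest APPRIS principal transcript (open diamonds) of each gene, in nt on a log scale. Hnrnpk, Hnrnpu, Hnrnpm, Hnrnpd and Hnrnpr lie at under 50% of their diamond, and Hnrnpa3 lies beyond its own.

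Near-identical copies were then sought, since reads that match a member and a copy were divided by estimation. At 95% identity or more over at least 200 nt, 63 genes at other loci matched 12 members, and 59 of the 63 were processed pseudogenes. Hnrnpa3 alone had 35, Hnrnpa1 8 and Hnrnpf 6. Of the 63, 21 had over 3 mean counts. Fractional counts, the mark of divided reads, were present in 12 members, 10 of which had such a copy. The other 2 were Hnrnpl and Hnrnpm, the latter overlapping March2 on the same strand.

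Gm5641, the copy of Hnrnpa3 shown first, was identical over 1488 nt to a transcript of Hnrnpa3, including all 1071 coding bases of that transcript. It was given 5241, 3200 and 3041 estimated counts, against 4557, 2600 and 2114 for Hnrnpa3. The pseudogene exceeded the member in every replicate, with 55.9% ± 2.82 (SD, n = 3) of their joint counts and a mean of 129.0 ± 12.8 TPM. With the counts of all its copies added and its own length kept, Hnrnpa3 stood at 123.3, 107.95 and 118.2 TPM in replicates 1, 2 and 3, at position 4 of the members in place of 10. With the copies' TPM added, each copy at its own length, it stood at 188.4 ± 17.5 TPM (SD, n = 3), at position 2. The level of Hnrnpa3 is thus uncertain from 50.1 to 188.4 TPM.

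For the other members the copies took less. They held 6.31% ± 2.27 of the joint counts for Hnrnpa1, 6.15% ± 0.58 for Hnrnpk, 2.59% ± 1.28 for Srsf3 and 1.34% ± 0.93 for Hnrnpf (SD, n = 3). Gm7964 matched Hnrnpk at 99.2% over 1378 nt, Gm10052 (chromosome 9, 123689233 to 123690192) matched Hnrnpa1 at 100% over 960 nt, and Gm9761 matched Srsf3 at 99.6% over 492 nt. Gm7964 had 520, 354 and 273 estimated counts, and Gm10052 had 125, 242 and 130. Gm6793, a copy of Hnrnpa3, had 94.8, 151 and 26.6 counts, and Gm7729, a copy of Hnrnpa1, had 93.4, 70.4 and 83.1. The share given to Gm10052 was lowest in replicate 1, at 2.19% of its joint counts with Hnrnpa1, and highest in replicate 2, at 6.46%.

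**Figure D3:**
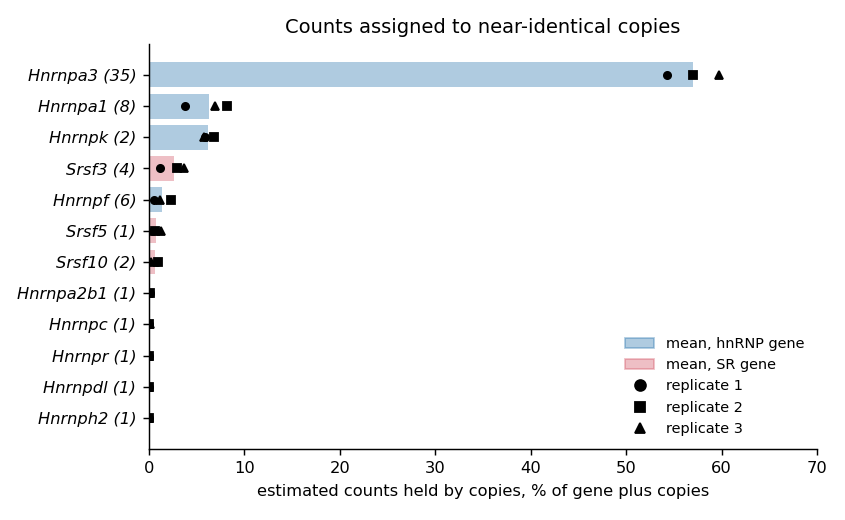
Percent of the estimated counts of a member and its near-identical copies that the copies hold, for the 12 members with a copy (number of copies in brackets); bars are means and points the 3 replicates. For Hnrnpa3 the copies hold from 54.3 to 59.8% of the joint counts, and for Hnrnpa1 from 3.79 to 8.21%.

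Paralogs were compared within each library, which leaves out differences in library scaling. Of 25 pairs within 9 paralog groups, 24 had the same order by TPM in all 3 replicates, and the exception was Hnrnpa1 with Hnrnpa2b1. An exact two-sided sign-flip test over 3 replicates cannot go below p = 0.25, so the order is given as a count.

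In the A/B group, whose proteins share a pair of RNA recognition motifs and a glycine-rich tail, Hnrnpa1 and Hnrnpa2b1 held 39.0% ± 1.96 and 36.6% ± 2.88 of the group's TPM, Hnrnpa3 19.1% ± 2.04 and Hnrnpa0 5.31% ± 0.75 (SD, n = 3). The log2 ratio of Hnrnpa1 to Hnrnpa2b1 was -0.11, 0.16 and 0.23 in replicates 1, 2 and 3, a difference within the spread. Hnrnpa1 was the higher in all 3 replicates by CPM (0.44 ± 0.12), per reference length (0.23 ± 0.12) and per longest annotated transcript (0.66 ± 0.12; SD, n = 3). Hnrnpa1 exceeded Hnrnpa0, a gene of 1 exon, by 7.40-fold, with a log2 ratio of 2.89 ± 0.25 (SD, n = 3), and by 4.40-fold per longest annotated transcript.

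The place of Hnrnpa3 in the group depended on its copies. With their counts added at its own length, Hnrnpa3 held 34.7% ± 4.20 of the group and Hnrnpa1 32.5% ± 1.71 (SD, n = 3). The log2 ratio of Hnrnpa1 to Hnrnpa3, 1.04 ± 0.13 by TPM, was then -0.03, 0.07 and -0.31 in replicates 1, 2 and 3, with no constant order. That of Hnrnpa2b1 to Hnrnpa3, 0.94 ± 0.25 by TPM, was then 0.03, -0.21 and -0.64. With the copies' TPM added, both ratios were below 0 in all replicates, at -0.67 ± 0.08 and -0.97 ± 0.23 (SD, n = 3). The ratio of Hnrnpa2b1 to Hnrnpa3 was also below 0 per reference length, at -0.05 ± 0.03.

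In the F/H group of G-tract binders, Hnrnpf held 72.8% ± 0.75 of the TPM, Hnrnph1 20.9% ± 0.58, Hnrnph2 3.89% ± 0.44 and Hnrnph3 2.49% ± 0.47 (SD, n = 3). Hnrnpf exceeded Hnrnph1 by 3.49-fold, at log2 ratios of 1.85, 1.74 and 1.81, the narrowest spread of any pair. It exceeded Hnrnph2 by 18.8-fold and Hnrnph3 by 29.5-fold. These folds moved by more than 1.5 times on other scales, that over Hnrnph1 to 8.28 per longest annotated transcript, and those over Hnrnph2 and Hnrnph3 to 11.6 and 47.8 by CPM. Hnrnpf kept over 70% of the group with copies added (73.2% ± 0.41 of TPM) and per reference length (76.8% ± 1.34).

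In the D/AB group, Hnrnpab held 44.95% ± 6.05, Hnrnpd 29.6% ± 4.69 and Hnrnpdl 25.5% ± 2.37 (SD, n = 3). Hnrnpd exceeded Hnrnpdl by 1.16-fold, with a log2 ratio of 0.21 ± 0.21 (SD, n = 3). The direction turned with the length used: the ratio was -0.86 ± 0.20 by CPM and -2.17 ± 0.20 per reference length, and Hnrnpd then held 6.65% ± 1.22 of the group (SD, n = 3).

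Hnrnpl exceeded Hnrnpll, known for its part in CD45 splicing in lymphocytes, by 9.59-fold, with a log2 ratio of 3.26 ± 0.16 (SD, n = 3). The lead was 5.09-fold by CPM and 5.92-fold per reference length. In the U group, Hnrnpu held 80.9% ± 0.71, Hnrnpul1 12.6% ± 0.46 and Hnrnpul2 6.45% ± 0.46 (SD, n = 3). The share of Hnrnpu was 58.6% ± 2.50 per reference length, still the highest of the 3.

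Each SR group also had a leading gene by TPM. Srsf10 exceeded Srsf12 by 72.8-fold, the widest gap among the 25 pairs, with log2 ratios of 6.17, 6.55 and 5.83. It was of like size by CPM (6.53 ± 0.22) and per reference length (6.18 ± 0.22). Srsf1 exceeded Srsf9, the other protein of its type, by 8.62-fold, with a log2 ratio of 3.11 ± 0.28 (SD, n = 3), but by 22.3-fold by CPM and 4.84-fold per reference length. Srsf3 exceeded Srsf7 by 1.88-fold, at log2 ratios of 0.97, 0.92 and 0.84.

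Among Srsf4, Srsf5 and Srsf6, which each carry a pair of RNA recognition motifs, Srsf5 held 51.4% ± 6.44 of the TPM, Srsf6 35.4% ± 4.81 and Srsf4 13.2% ± 1.71 (SD, n = 3). Srsf4 was lowest on all scales tried. The lead of Srsf5 over Srsf6 was 1.46-fold, with a log2 ratio of 0.54 ± 0.38, and by CPM it was -0.15 ± 0.25 (SD, n = 3).

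**Figure D4:**
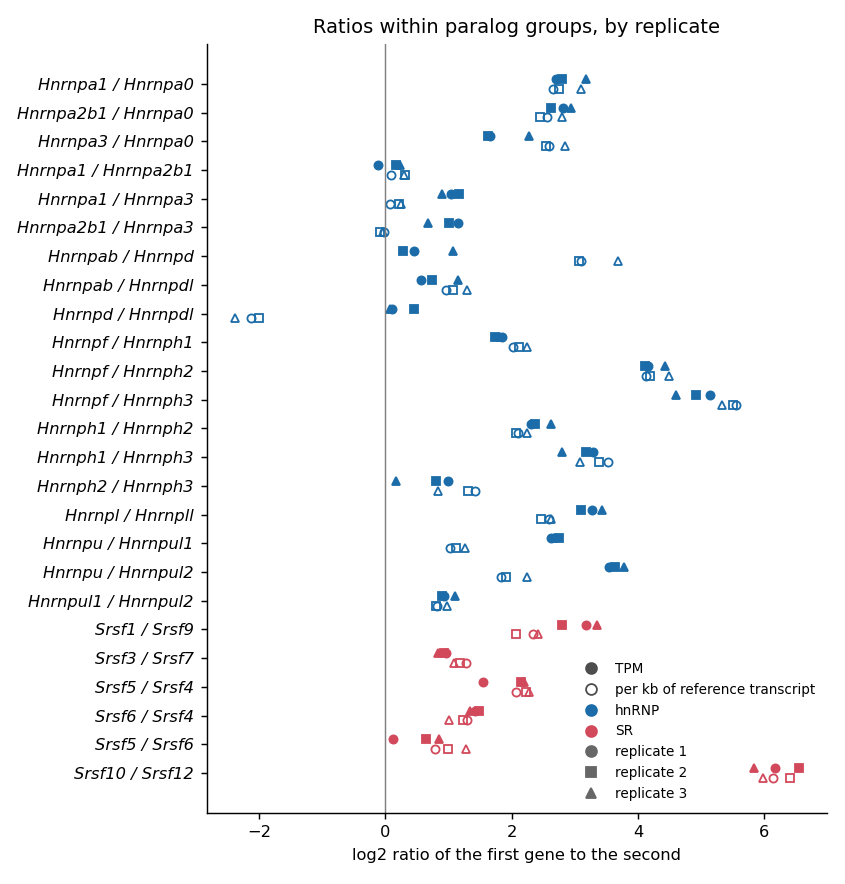
Log2 ratio of the first to the second gene of each of the 25 pairs in the 3 replicates, by TPM (filled) and per kilobase of reference transcript (open). The Srsf10 to Srsf12 ratio is the farthest from 0, at 5.83 to 6.55 by TPM, and the Hnrnpd to Hnrnpdl ratio lies below 0 per reference length.

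The last comparison asked whether any member varied between replicates more than genes of like abundance. By edgeR's goodness-of-fit test with Benjamini-Hochberg adjustment over all 12577 genes tested, 0 of the 31 members were called, beside 1.84% of all genes (232, in either direction). In this test, 0 of the 31 members reached an unadjusted p under 0.05, beside 875 of the 12577 genes. With a smooth correction for gene length, 1 member reached it and 0 were called. With DESeq2 size factors, 0 were called as well. All 31 passed the filter on low counts. The members' median range between replicates was 0.21 on the log2 scale of TMM-scaled CPM (0.16 for hnRNP and 0.24 for SR genes), against 0.32 over protein-coding genes and 0.28 over those with at least 100 mean counts. Neither of these groups was matched to the members for abundance.

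The widest ranges belonged to Hnrnpd (0.54), Hnrnph3 (0.50) and Srsf6 (0.44). Hnrnpd had 82.4, 87.1 and 59.7 TMM-scaled CPM and Srsf6 had 141.2, 144.4 and 106.1, both lowest in replicate 3. Hnrnph3 had 12.3, 14.0 and 17.5, highest in replicate 3. Replicate 3 was lowest in 9 of the 31 members (29.0%), beside 41.4% of protein-coding genes, and highest in 18 (58.1%), beside 40%. The narrowest range was that of Hnrnpll, with 84.96, 86.64 and 85.14 TMM-scaled CPM.

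**Figure D5:**
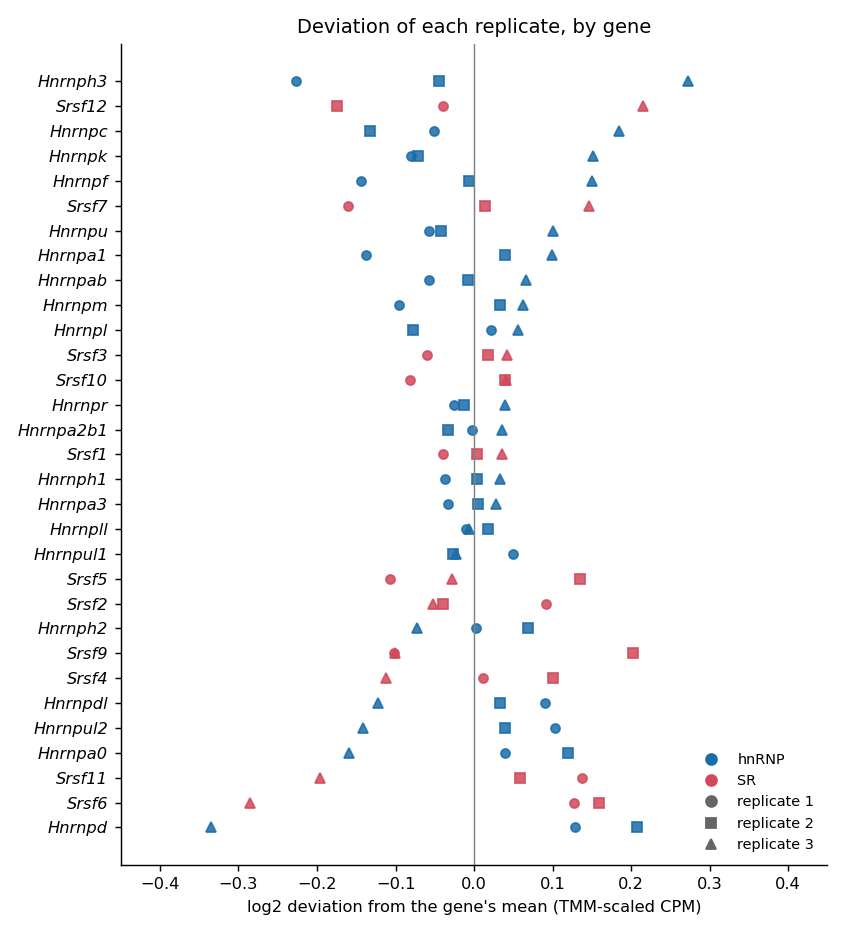
Distance of each replicate from the mean of its gene, in log2 of TMM-scaled CPM, for the 31 genes, ordered by replicate 3. Hnrnpd has the widest range, 0.54, and its replicate 3 lies lowest.

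Other splicing genes were examined on the same scales. Of the hnRNP proteins that go by other symbols, 12 of 13 reached 1 TPM. Pcbp2, a poly(C)-binding relative of Hnrnpk, had 127.8 ± 61.5 and Ptbp1, the polypyrimidine tract repressor, 95.1 ± 18.8 TPM (SD, n = 3), while Ralyl had 0 counts. All 6 SR-related genes did, among them Tra2b at 41.6 ± 5.34 TPM, and so did 7 of the 8 kinases and importers of SR proteins. Tnpo3, which imports SR proteins into the nucleus, had 33.7 ± 3.85 TPM and the kinase Srpk1 21.7 ± 6.07 (SD, n = 3). Srpk3 had 0.093 TPM from 2, 1 and 1 estimated counts, under the limit of 3 that a count of 0 allows. The 4 core splice-site factors U2af1, U2af2, Snrnp70 and Sf3b1 lay between 32.5 and 51.0 TPM. Of the 15 genes listed as tissue-restricted regulators, 5 reached 1 TPM, beside 44.1% of all protein-coding genes. They were led by Celf1 (21.3 ± 5.94) and Rbfox2 (11.35 ± 3.18). How far each listed gene is restricted to particular tissues was not examined here.

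Of the 46 genes on these lists, 39 were tested for variation between replicates and 2 were called, both lower in replicate 3, beside the 1.84% called over all genes tested. Srrm1, a splicing coactivator, had 234.3, 209.0 and 91.0 TMM-scaled CPM (edgeR adjusted p = 0.018). Nova2, a neuronal splicing regulator, had 23.0, 17.9 and 4.90 (edgeR adjusted p = 0.000271). Pcbp2 had 434.5, 422.2 and 207.6, with an adjusted p of 0.182 by edgeR, and of 0.0144 after a smooth correction for gene length. The neuronal marker Syn1 was called as well, with 11.1, 12.5 and 3.01 TMM-scaled CPM (edgeR adjusted p = 0.0109). Without replicate 3, the edgeR adjusted p of Srrm1, Nova2 and Syn1 was 0.999 each. Srrm1 was not called without replicate 1 (0.114) or without replicate 2 (0.125) either, and Syn1 not without replicate 2 (0.141), whereas Nova2 passed in both cases (0.0211 and 0.00924). The more abundant neuronal marker Tubb3 was not called and was highest in replicate 3, with 39.9, 41.0 and 59.5 TMM-scaled CPM. The part of neuronal marker expression in the members' values was not tested.

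The genes next to the members were listed, since an unstranded count could mix a member with a gene that overlaps it. A head-to-head neighbour on the opposite strand with its start within 1000 bp was annotated for 12 of the 31 members (38.7%), against 28.8% of expressed protein-coding genes. In 7 of the 12, the neighbour reached 1 TPM, and of these neighbours only Mfsd11 overlaps its member. Cbx3, a heterochromatin protein gene 466 bp from Hnrnpa2b1, had 69.7 ± 16.1 TPM, and its relative Cbx5, 616 bp from Hnrnpa1, had 32.1 ± 7.10 TPM (SD, n = 3). Lrrc40, 23 bp from Srsf11, had 23.5 ± 3.91 TPM and Ttc9c, 677 bp from Hnrnpul2, 20.4 ± 3.19 (SD, n = 3). Enoph1 beside Hnrnpdl, Gla beside Hnrnph2 and Mfsd11 beside Srsf2 had 6.21, 3.35 and 2.42 TPM. A gene on the opposite strand overlapped 12 members (38.7%), against 42.9% of expressed protein-coding genes, with Rmi1 over Hnrnpk at 6.12 ± 1.88 TPM. The sources used here do not give the strand setting, so small values of overlapping partners are uncertain.

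The letters of the members' promoters were compared by their CG dinucleotides, which mark CpG islands when dense. RefSeq start windows of GRCm38.p6, from 250 bases before to 50 after the start, were found for 29 of the 31 members (not for Hnrnpll and Hnrnpul2). The median was 31 CG per window, against 22 in expressed protein-coding genes and 14 in all protein-coding genes. At least 10 CG were held by 28 of the 29 windows (96.6%), against 88.7% and 59.2%. Hnrnpf had the fewest, 7, and Hnrnpa0 the most, 52. Srsf12, the member under 1 TPM, had 26 and Srsf10 had 38. These 2 windows lie 281 and 324 bp from the start of the gene in GENCODE, and those of Hnrnpdl and Hnrnph3 442 and 368 bp from it. The windows of Hnrnpl, Hnrnpm and Hnrnpk lie 2349, 1402 and 1226 bp from it. Any of these windows may not hold the start used here.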

How the data were processed

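Gene-level RNA-seq tables of 3 E14 replicates were used. The submitters' processing notes name STAR, RSEM, Bowtie2, SAMtools, deepTools and mm10, without versions or roles. The authors deposited estimated counts per gene without normalization, and beside them TPM scaled over all genes and, per the file headers, length and effective length. Annotation release and strand setting are not given in the sources used here. GENCODE vM21 (GRCm38) matched 55227 IDs and not 260.

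Levels used log2(TPM + 1) or CPM. The reference length is the longest APPRIS principal transcript. Copies were found with blastn 2.17.0. Rounded counts entered edgeR 4.0.16 (TMM, filterByExpr, trended dispersion, goodness-of-fit test, adjusted p under 0.05), which was tested on simulated data, with DESeq2 1.42.0 size factors as an alternative, in R 4.3.3. The remaining computations ran in Python 3.11.15 with pandas 2.3.3, numpy 2.4.6 and matplotlib 3.10.9. Floors of 3 counts cover counting error only.

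Named genes were all members, the splicing and marker lists, the 5 copies with the highest counts and overlapping or head-to-head neighbours. Gm9761 was named after its values were seen. Members and lists were chosen with earlier results of these data known. Alternatives changed the length scale, pseudocount, filter, dispersion, statistic, copy limits and replicates. Uses of APPRIS lengths and of added copies were chosen after seeing the data.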

Additional observations from a re-analysis of the deposited data

How the results depend on the processing

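The 6 comparison results and 25 paralog ratios were each recomputed under a set of alternatives. Counting each result under each setting gave 167 alternatives, 85 planned and 82 chosen after seeing the data. Most of the 167 are the same few settings repeated for each of the 25 pairs. Of the comparison results, only the family difference could change sign, and none of its alternatives reversed it. The other results are counts or a share, which cannot change sign, so the lack of a reversal says nothing about them. Across all comparison results, 8 alternatives were labelled as moving the value. For counts, which have no SD, the limit for this label was not a spread between replicates. A change from 30 to 24 expressed members was not labelled as moved. The family difference of 0.668 became 0.330 with CPM, 0.927 with means in place of medians, 0.614 with members of at least 1 TPM and 0.163 per APPRIS length. It ran from 0.643 to 0.683 with 1 replicate left out. The share of protein-coding counts, 0.942%, became 1.033% of nuclear genes, 0.871% of TPM and 1.020% with copies' counts added, and ran from 0.938 to 0.948% with 1 replicate left out. The copies fell from 63 to 35 at 98% identity, and were 52 at 500 nt. Expressed members were 30 at every limit of 1 TPM as deposited, 24 at 10 TPM and 31 at 1 CPM. This count was not rerun with TPM rescaled without short genes, where Srsf12 had a mean of 1.05. Pairs in constant order were 22 to 25 and varying members 0 throughout.

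Among the alternatives for single pairs, 11 reversed the mean log2 ratio: Hnrnpa1 to Hnrnpa3 (-0.67 with copies' TPM and -0.09 ± 0.20 with copies' counts added), Hnrnpa2b1 to Hnrnpa3 (-0.04 by CPM, -0.05 per APPRIS length, -0.97 with copies' TPM, -0.28 ± 0.34 with copies' counts), Hnrnpd to Hnrnpdl (-0.86 by CPM, -2.17 per longest and -2.17 per APPRIS transcript) and Srsf5 to Srsf6 (-0.15 by CPM, -0.13 per longest transcript). Each changed the length or the counts by construction. Another 54 moved without reversing. At this depth, Srsf12 rests on at most 24 counts. No paired analysis was possible because the 3 tables belong to the same group, with nothing to pair them with.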
